A study of Mus musculus with 15 samples.

Results

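The subject is the state of kidneys from 7-month-old mice that carried the renal carcinoma fusion PRCC-TFE3, described across all genes. Arrays were chosen by their titles: the 4 Cre-positive (Cre+) arrays of 7 months were compared with the 3 Cre-negative (Cre-) arrays of that age, 7 of the 15 arrays in the series, and 22180 genes were tested. Every mouse carried the PRCC-TFE3 transgene as a knock-in at Rosa26, silenced by a LoxP-STOP-LoxP (LSL) cassette. The Cre+ mice also carried KSP-Cre, and the Cre- mice did not. KSP-Cre is driven by the promoter of Cdh16 (Ksp-cadherin), a gene of kidney tubule epithelium, so recombination is directed to such cells while the arrays measured RNA of the whole kidney. Mice with KSP-Cre but lacking the knock-in were not among the groups, which means that the fusion cannot be told apart from Cre expression by itself. Each array was 1 mouse, and sex was not given. Kidneys of 4 months (4 Cre+ and 4 Cre- mice) entered the same fit and are used where the effects at both ages were compared.

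TFE3 belongs to the MiT family of transcription factors, with TFEB, TFEC and MITF. These factors bind short E-box sequences in the promoters of genes for lysosomes, autophagy, nutrient sensing and, in pigment cells, melanosomes, and in normal cells nutrient signalling through the Rag GTPases and folliculin keeps them largely in the cytoplasm. In translocation renal cell carcinoma, the carboxy-terminal part of TFE3 with its DNA-binding domain is joined to a partner such as PRCC and acts in the nucleus. The kidney in which such tumours arise is mostly tubule: proximal tubule cells recover filtered solutes and burn fatty acids, and the later segments adjust salt, water and acid.

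At 7 months, 2597 genes were higher in Cre+ kidneys and 2394 were lower at an adjusted p of at most 0.05, 11.7% and 10.8% of those tested. Rises reached further than falls: 681 genes rose (3.07%) and 450 fell (2.03%) at least 2-fold, and 116 rose (0.523%) and 32 fell (0.144%) at least 4-fold. Among the genes called, 2422 of those that rose and 2226 of those that fell had no overlap between Cre+ and Cre- mice; over all genes 14% had every Cre+ kidney above and 15.2% every Cre+ kidney below the Cre- kidneys. The median log2 difference over all genes was -0.04, the value against which the medians of gene lists below can be read, and median centring of each array moved it to -0.12 and the share of calls that were rises from 52% to 39.3%. Arrays of one group correlated across genes at 0.983 to 0.992 and Cre+ with Cre- arrays at 0.958 to 0.971. The first principal component of the 7 arrays held 61.1% of the variance and separated Cre+ from Cre-. The means of Y-linked transcripts, which tell male from female mice, were high in 2 of 3 Cre- and 2 of 4 Cre+ arrays, and results that differ with this split are given at the end. These are log2 intensities of bulk tissue, so fewer cells of a type and less RNA per cell cannot be told apart in any of them. The table holds no detection calls: Xist, silent in males, read 3.35 to 3.93 wherever Y-linked values were high, so a mean at such a level may lie at background and the fold of that gene may be a lower bound.

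**Figure D1:**
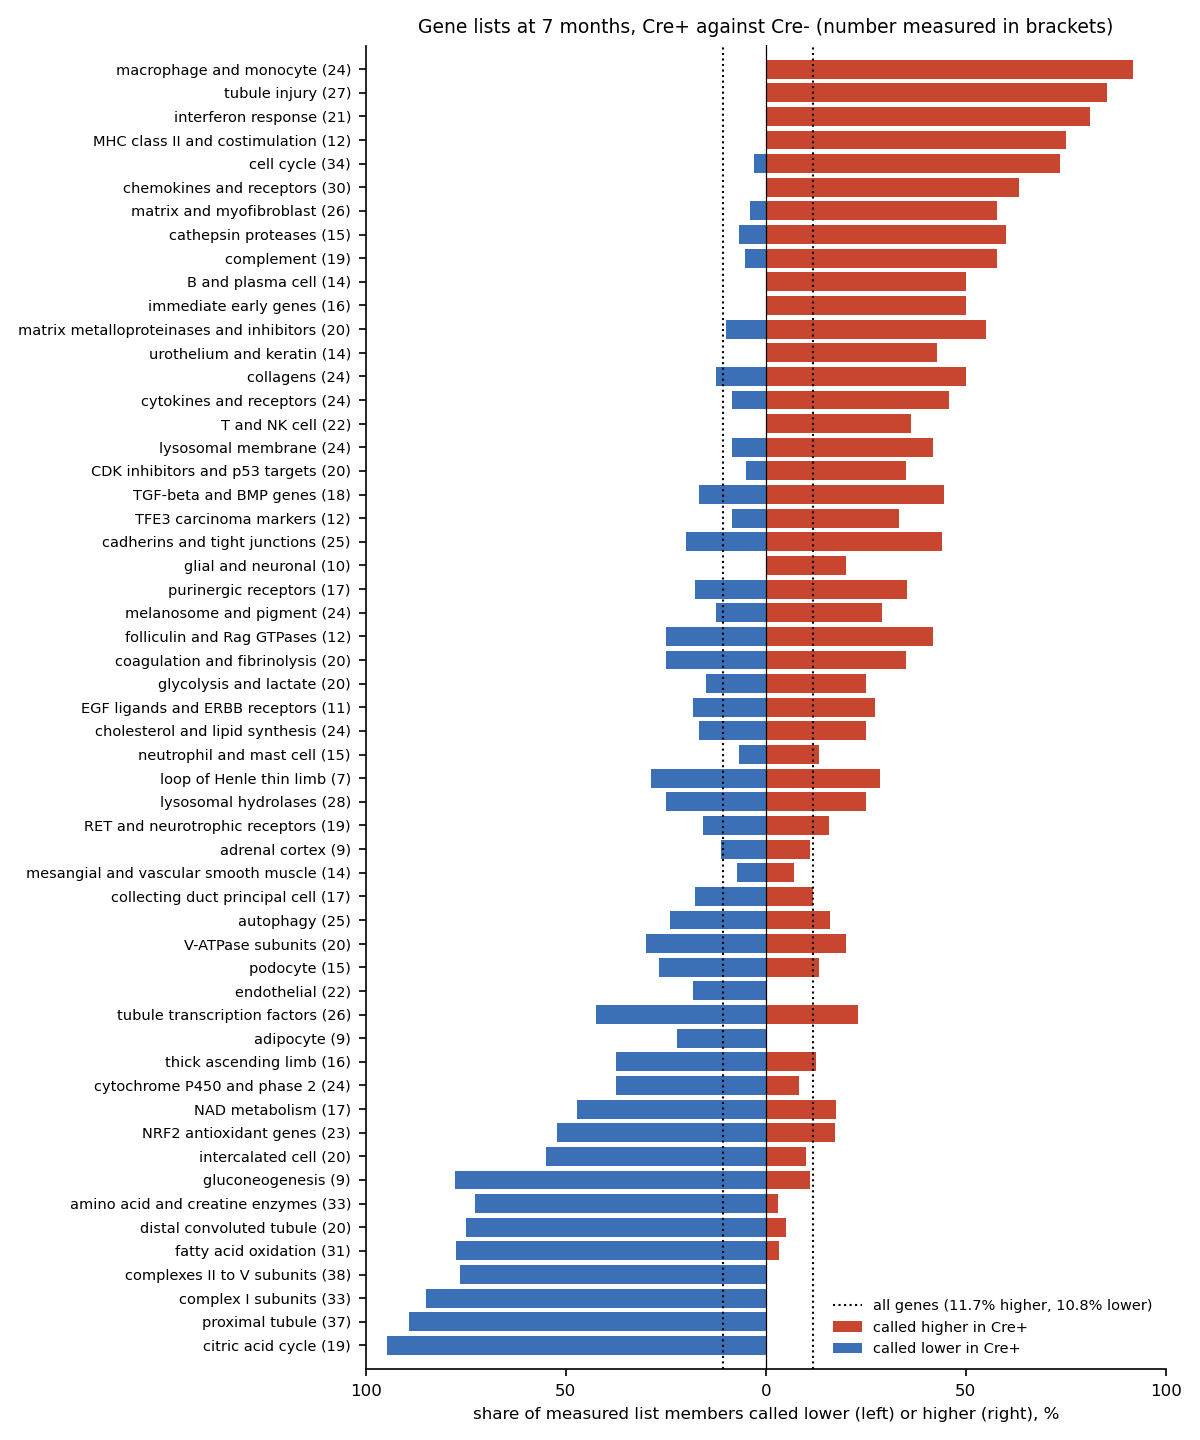
Share of the measured members of each gene list that were called higher (right, red) or lower (left, blue) in Cre+ kidneys at 7 months, in percent, with the number measured in brackets and dotted lines at the shares over all genes (11.7% higher, 10.8% lower). Macrophage, tubule injury and interferon lists lie at one end, and citric acid cycle, proximal tubule and complex I lists at the other.

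The genes of the transgene system were examined first. Tfe3 stood at 6.61, 6.51 and 6.6 in the Cre- kidneys and 6.75, 6.78, 6.88 and 6.77 in the Cre+ kidneys (log2 difference 0.22, SE 0.1, adjusted p = 0.14). Prcc stood at 6.9, 6.43 and 6.39 in the Cre- kidneys and 6.38, 6.22, 6.41 and 6.3 in the Cre+ kidneys (log2 difference -0.25, SE 0.13, adjusted p = 0.2). Neither passed the test, and what the probes detect of the knock-in is not stated in the labels, so these values check neither its presence nor its absence. Cdh16, whose promoter drives Cre, stood at 10.06, 9.75 and 9.78 in the Cre- kidneys and 9.38, 9.45, 9.59 and 9.32 in the Cre+ kidneys (log2 difference -0.43, SE 0.13, adjusted p = 0.026). The fall of Cdh16 was small and did not pass after quantile normalization (-0.25, adjusted p = 0.19). Tfec, another MiT factor, fell (-0.59), the only one of the 5 MiT and partner genes measured that was called.

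The 20 largest rises, chosen among genes whose groups did not overlap, included lysosomal and pigment-cell genes, secreted signals and receptors. Gpnmb, a glycoprotein of lysosomes and melanosomes used as a marker of TFE3-rearranged renal carcinoma, stood at 4.51, 4.05 and 4.69 in the Cre- kidneys and 12.01, 12.15, 12.37 and 12.1 in the Cre+ kidneys (log2 difference 7.74, SE 0.18, adjusted p = 3.2e-14). Diras2, a small GTPase of the Ras superfamily, stood at 4.6, 4.05 and 3.35 in the Cre- kidneys and 10.46, 10.72, 10.84 and 10.67 in the Cre+ kidneys (log2 difference 6.67, SE 0.24, adjusted p = 5.2e-12). The Cre+ kidneys lay within a narrow band for both genes, far above every Cre- kidney. Cd68, a lysosomal glycoprotein abundant in macrophages, stood at 6.14, 6.42 and 6.49 in the Cre- kidneys and 11.4, 11.19, 11.9 and 11.41 in the Cre+ kidneys (log2 difference 5.13, SE 0.23, adjusted p = 1.3e-10). Tyrp1, an enzyme of melanin synthesis, stood at 3.66, 4.31 and 3.64 in the Cre- kidneys and 8.27, 8.19, 9.41 and 8.66 in the Cre+ kidneys (log2 difference 4.76, SE 0.28, adjusted p = 5.7e-09). P2rx7, a channel opened by extracellular ATP, stood at 5.35, 5.3 and 5.51 in the Cre- kidneys and 10.01, 9.84, 9.82 and 10.15 in the Cre+ kidneys (log2 difference 4.57, SE 0.15, adjusted p = 2.8e-12). In each of these the gap between the groups was wider than the spread within either group. Nr4a1, a nuclear receptor induced as an immediate early gene, stood at 4.95, 5.08 and 5.17 in the Cre- kidneys and 8.94, 8.99, 9.72 and 9.35 in the Cre+ kidneys (log2 difference 4.18, SE 0.18, adjusted p = 9.5e-11). Zdhhc2, a palmitoyltransferase, stood at 4.44, 5.38 and 5.28 in the Cre- kidneys and 8.7, 8.48, 9.03 and 9.02 in the Cre+ kidneys (log2 difference 3.78, SE 0.26, adjusted p = 2.6e-08). Ngfr, a receptor for neurotrophins, stood at 4.57, 4.73 and 4.56 in the Cre- kidneys and 8.07, 7.96, 8.48 and 8.39 in the Cre+ kidneys (log2 difference 3.6, SE 0.13, adjusted p = 5.2e-12). The Cre- kidneys were close together for Nr4a1 and Ngfr and further apart for Zdhhc2.

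Other genes among the 20 largest rises were the secreted glycoprotein Reln (5.22), the copper monooxygenase relative Moxd1 (5.44), the growth factor Tgfb2 (4.6), the metalloproteinase Mmp7 (3.99), the diamine oxidase Aoc1 (3.43), the coagulation inhibitor Serpina10 (3.53), the melanosome transport factor Mreg (3.52), Bex1 (3.33) and Efcab1 (3.31), with log2 differences in brackets. Serpina10 rose 11.5-fold and Aoc1 10.8-fold. The Cre- means of Moxd1, Tyrp1, Mmp7 and Efcab1 were at most 3.93, so their folds may be lower bounds. The same holds for Grem1, Eda2r, Il7r, Ms4a1, H2-DMb2, Mx2, Akr1b8, Nmrk2, Gpr143 and Adgrg2, named further on. A second, dimmer array entry of Mmp7 was at -0.10, so its rise rests on 1 entry.

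**Figure D2:**
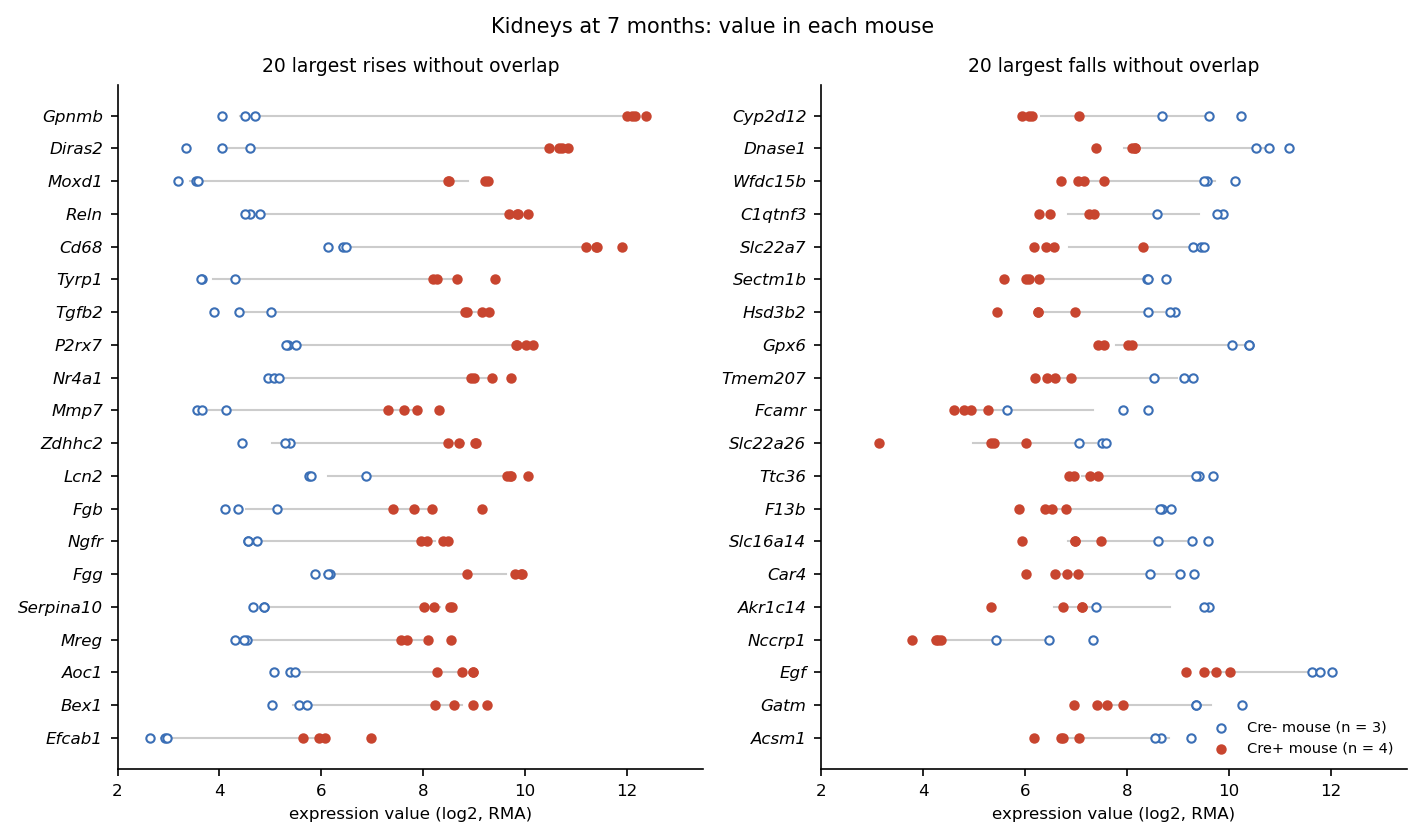
Expression (log2 RMA value, horizontal axis) of the 20 largest rises (left) and the 20 largest falls (right) among genes chosen for groups that do not overlap, in each 7-month kidney: open blue circles are the 3 Cre- mice, filled red circles the 4 Cre+ mice, and grey lines join the group means. Gpnmb moves from 4.05 to 4.69 in Cre- to 12.01 to 12.37 in Cre+ kidneys.

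Because MiT factors bind the E-boxes CACGTG and TCATGTG, the RefSeq promoters (GRCm38.p6, 250 bases before to 50 after the start of each gene) were searched for both, on both strands (TCATGTG also as CACATGA; the forms do not overlap). A gene counted as holding a form where any of its starts in the table did. Of 16990 tested genes with a promoter there, 12.4% held either form. The share was 14.5% of 1972 genes that rose, 13.1% of 1921 that fell and 12% of those not called. It was 18.3% of the 82 genes that rose at least 4-fold, and 6 of the 17 promoters available among the 20 largest rises held one. In the lysosome, V-ATPase and folliculin lists a form was present in 11 of 30 promoters of genes that rose, 5 of 19 of genes that fell and 16 of 34 of genes not called, so promoters with an E-box were found in each of these classes. A match describes these letters only and is no evidence of binding. The sequences below are a selection, 5′ to 3′ on the strand of the gene with each E-box in capitals. They show single forms in genes that rose most, repeated forms in lysosomal and Rag genes that rose, and forms in lysosomal genes that fell. Among promoters not shown, single forms lay in Ctsl, Scarb2 and Rragc, which rose, and in Acp5 and Lamtor2, which fell. A V-ATPase gene that rose held a pair there. The selection therefore does not tie repeated forms to a rise.
Reln (chr5:22344747-22344800, - strand): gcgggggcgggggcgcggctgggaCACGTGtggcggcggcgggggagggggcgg
Tyrp1 (chr4:80834142-80834196, + strand): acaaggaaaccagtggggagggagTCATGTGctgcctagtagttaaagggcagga
Tgfb2 (chr1:186706011-186706064, - strand): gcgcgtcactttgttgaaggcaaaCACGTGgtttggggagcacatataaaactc
Mmp7 (chr9:7692267-7692320, + strand): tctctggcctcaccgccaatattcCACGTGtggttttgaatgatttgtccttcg
Gla (chrX:134601170-134601255, - strand): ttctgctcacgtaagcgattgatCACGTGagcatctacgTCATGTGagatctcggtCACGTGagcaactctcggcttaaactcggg
Ctsd (chr7:142387896-142388077, - strand): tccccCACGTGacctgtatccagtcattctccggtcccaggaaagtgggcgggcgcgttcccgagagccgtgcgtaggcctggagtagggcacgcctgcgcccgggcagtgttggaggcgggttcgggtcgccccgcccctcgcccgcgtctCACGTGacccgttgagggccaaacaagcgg
Mcoln1 (chr8:3500424-3500503, + strand): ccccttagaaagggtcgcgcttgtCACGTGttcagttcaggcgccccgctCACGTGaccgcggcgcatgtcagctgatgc
Cln3 (chr7:126583328-126583409, - strand): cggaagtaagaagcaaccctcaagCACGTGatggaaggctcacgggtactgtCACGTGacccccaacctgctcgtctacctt
Rragb (chrX:153139807-153139951, + strand): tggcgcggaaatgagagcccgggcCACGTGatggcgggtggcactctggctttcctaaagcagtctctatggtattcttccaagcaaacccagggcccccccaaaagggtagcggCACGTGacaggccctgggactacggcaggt
Slc36a1 (chr11:55204285-55204338, + strand): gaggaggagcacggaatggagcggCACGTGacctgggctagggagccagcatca
Lamtor4 (chr5:138255338-138255407, + strand): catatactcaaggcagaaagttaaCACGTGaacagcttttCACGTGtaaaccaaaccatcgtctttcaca
Counted from the RefSeq start, the E-box of Reln began at -71, that of Tgfb2 at -51 and that of Mmp7 at -50, and the TCATGTG of Tyrp1 at -47. Gla had 3 forms, at -227, -211 and -194, and Rragb, which rose, and Lamtor4, which fell, each had a pair, at -127 and -36 and at -120 and -104. Mmp7 had a second start without either form, and in Lcn2 and Bex1 the form lay across or after the start and is not shown. The window of Gpnmb, the gene with the largest rise, held neither form.

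Lysosomal genes did not move as one body. Their counts, and those of every list below, are read against 11.7% of all genes called higher and 10.8% called lower. Among lysosomal hydrolases 7 of 28 measured members rose and 7 fell (median log2 difference 0.07). Those that rose included the heparan-degrading heparanase Hpse (2.77), the hexosaminidase subunit Hexa (2.39), the alpha-galactosidase Gla (1.43) and the saposin precursor Psap (0.68), while the lysosomal lipase Lipa (-1.14), the sialidase Neu1 (-0.75) and the tartrate-resistant phosphatase Acp5 (-0.69) fell. Hexa stood at 8.22, 7.78 and 8.25 in the Cre- kidneys and 10.4, 10.36, 10.62 and 10.53 in the Cre+ kidneys (log2 difference 2.39, SE 0.14, adjusted p = 4.1e-09). Lipa stood at 11.31, 11.21 and 11.24 in the Cre- kidneys and 10.4, 9.98, 9.93 and 10.13 in the Cre+ kidneys (log2 difference -1.14, SE 0.12, adjusted p = 2.2e-06). Both separated the groups completely, in opposite directions. Of the cathepsins 9 of 15 measured members rose and 1 fell (median log2 difference 0.63), led by Ctss (2.51), Ctsl (1.65), Ctsc (1.26) and Ctsk (0.98), and Ctsk is a marker of TFE3-rearranged carcinoma. Ctss and Ctsc are also abundant in myeloid cells, whose markers rose as given further on. Of lysosomal membrane genes 10 of 24 measured members rose and 2 fell (median log2 difference 0.24): beside Cd68, the calcium channels Mcoln3 (2.71) and Tpcn2 (1) and the receptor Scarb2 (0.87) rose, and the amino acid transporter Slc36a1 (-0.99) fell. Ctsd (0.95), the main aspartic protease of lysosomes, the calcium channel Mcoln1 (0.58) and the membrane protein Cln3 (0.83), whose promoters are shown above, rose too. A second, dimmer entry of Hpse was at 0.01.

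The nutrient-sensing genes that act on MiT factors were also divided. Of all genes 11.7% were called higher and 10.8% lower, and the rises of autophagy genes and the falls of pigment genes below lay near these shares. Of the folliculin and Rag GTPase genes 5 of 12 measured members rose and 3 fell (median log2 difference 0.23). The Rag GTPases Rragd (1.5), Rragb (1.29) and Rragc (0.72) and the folliculin-interacting Fnip2 (0.64) rose, and the Ragulator subunits Lamtor5 (-0.81), Lamtor2 (-0.49) and Lamtor4 (-0.48) fell. Rragd stood at 8.35, 8.07 and 8.32 in the Cre- kidneys and 9.82, 9.6, 9.76 and 9.79 in the Cre+ kidneys (log2 difference 1.5, SE 0.12, adjusted p = 2.6e-07). Of V-ATPase subunits 4 of 20 measured members rose and 6 fell (median log2 difference -0.04). The subunit Atp6v0a1 rose (1.28), and the subunits of acid-secreting intercalated cells Atp6v1g3 (-0.99), Atp6v1c2 (-0.86) and Atp6v0a4 (-0.66) fell. Among autophagy genes 4 of 25 measured members rose and 6 fell (median log2 difference -0.09), with the cargo receptor Sqstm1 (0.74) and Uvrag (0.58) higher and the mitophagy receptor Bnip3 (-0.59), Atg3 (-0.53) and Atg9a (-0.53) lower. Of 24 melanosome and pigment genes 7 rose and 3 fell (median log2 difference 0.12): Gpnmb, Tyrp1 and Mreg were joined by the melanosomal receptor Gpr143 (3.16), while the trafficking genes Rab38 (-0.69), Bloc1s1 (-0.63) and Hps3 (-0.57) fell. Of the 12 measured markers of human TFE3 carcinoma 4 rose, Gpnmb, Tyrp1, Rragd and Ctsk, and 1 fell, Ppargc1a (-0.47), with a median of 0.12. Ppargc1a was not followed through the alternatives given at the end.

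Among growth factors and their receptors, Ret rose and Egf fell. Ret, a receptor tyrosine kinase of kidney development, stood at 4.29, 4.8 and 4.13 in the Cre- kidneys and 6.73, 7.01, 6.97 and 7.21 in the Cre+ kidneys (log2 difference 2.58, SE 0.19, adjusted p = 5.7e-08). Egf, made by the distal nephron, stood at 11.64, 11.8 and 12.03 in the Cre- kidneys and 9.52, 9.16, 9.75 and 10.02 in the Cre+ kidneys (log2 difference -2.21, SE 0.17, adjusted p = 1.4e-07). Both genes separated the groups in opposite directions. Other EGF family ligands rose, Tgfa (0.94), Nrg1 (0.82) and Hbegf (0.78), and of the 11 family members measured 3 rose and 2 fell. Of 19 RET pathway and neurotrophic genes 3 rose and 3 fell (median -0.08), shares near the 11.7% and 10.8% of all genes, with Ret and Ngfr the largest rises and Bdnf (-0.53), near background in Cre+ kidneys, among the falls.

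Of TGF-beta and BMP genes 8 of 18 measured members rose and 3 fell (median log2 difference 0.31). The ligand Tgfb2, named above, was followed by the BMP antagonist Grem1 (1.86), the latent TGF-beta binding protein Ltbp2 (1.83) and the matricellular target Ccn2 (1.05), whose second, dimmer entry was at 0.04. The ligands Bmp7 (-0.47) and Bmp6 (-0.44), of which Bmp7 maintains tubule epithelium, fell. Grem1 stood at 3.66, 3.16 and 3.49 in the Cre- kidneys and 5.66, 5.43, 5.16 and 4.95 in the Cre+ kidneys (log2 difference 1.86, SE 0.23, adjusted p = 1.3e-05), with a Cre- mean that may lie at background. Of immediate early genes 8 of 16 measured members rose and 0 fell (median log2 difference 0.44): Nr4a1, Atf3 (1.68), Egr1 (1.41) and Jun (1.05) led. Of purinergic receptors and nucleotidases 6 of 17 measured members rose and 3 fell (median log2 difference 0.03), with P2ry6 (1.29) and the ectonucleotidase Entpd1 (0.73) after P2rx7, and P2rx5 (-0.63) lower.

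Most genes of cell division rose. Of the cell cycle list 25 of 34 measured members rose and 1 fell (median log2 difference 0.62), against 11.7% of all genes. Top2a, the topoisomerase of dividing cells, stood at 4.4, 3.81 and 3.99 in the Cre- kidneys and 6.14, 5.88, 5.37 and 6.13 in the Cre+ kidneys (log2 difference 1.81, SE 0.22, adjusted p = 1.3e-05). Mki67, the proliferation antigen Ki-67, stood at 5.7, 5.38 and 5.2 in the Cre- kidneys and 7.12, 6.83, 6.48 and 6.86 in the Cre+ kidneys (log2 difference 1.39, SE 0.19, adjusted p = 3.7e-05). Every Cre+ kidney was above every Cre- kidney for both, and the spindle genes Kif11 (1.29) and Tpx2 (1) rose as well. Some inhibitors of the cycle and p53 targets rose beside them. Of that list 7 of 20 measured members rose and 1 fell (median log2 difference 0.28), with the CDK inhibitor Cdkn1a (1.25), Perp (1.25), Eda2r (1.18) and Trp53inp1 (0.82) highest. Cdkn1a stood at 6.12, 5.56 and 6.27 in the Cre- kidneys and 7.11, 7.18, 7.35 and 7.29 in the Cre+ kidneys (log2 difference 1.25, SE 0.19, adjusted p = 9.3e-05). The level of the cell cycle list, summed over its members on the linear scale and given as log2, was 10.84 to 11.02 in the Cre- kidneys and 11.47 to 11.63 in the Cre+ kidneys.

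Markers of tubule injury were among the lists with most rises: 23 of 27 measured members rose and 0 fell (median log2 difference 1.02). Lcn2, a secreted siderophore-binding protein of injured tubules, stood at 5.75, 5.8 and 6.88 in the Cre- kidneys and 9.65, 10.05, 9.73 and 9.71 in the Cre+ kidneys (log2 difference 3.64, SE 0.35, adjusted p = 1.4e-06). Vcam1, an adhesion molecule of tubule cells that fail to repair and of endothelium, stood at 6.3, 6.41 and 6.46 in the Cre- kidneys and 9.76, 9.62, 9.6 and 9.46 in the Cre+ kidneys (log2 difference 3.22, SE 0.22, adjusted p = 2.8e-08). Havcr1, the kidney injury molecule KIM-1, stood at 4.79, 4.15 and 4.1 in the Cre- kidneys and 8.17, 8.25, 6.46 and 6.34 in the Cre+ kidneys (log2 difference 2.96, SE 0.4, adjusted p = 3.9e-05). All Cre+ kidneys were above all Cre- kidneys for these genes, but the Cre+ mice formed a high and a low pair for Havcr1, taken up below with the Y-linked split. Cd44 (2.88), a hyaluronan receptor of injured tubules and leukocytes, also rose. Summed over the list, the level was 11.75 to 12.06 in the Cre- kidneys and 13.22 to 13.38 in the Cre+ kidneys.

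All 3 fibrinogen chains rose: Fgb (3.61), Fgg (3.56) and Fga (1.8). Fgb stood at 5.14, 4.36 and 4.1 in the Cre- kidneys and 8.17, 7.81, 9.16 and 7.41 in the Cre+ kidneys (log2 difference 3.61, SE 0.39, adjusted p = 3.9e-06). Over the coagulation and fibrinolysis list 7 of 20 measured members rose and 5 fell (median log2 difference 0.28). The thrombin receptor F2r (0.87) rose, whereas the coagulation factors F13b (-2.34) and F5 (-1.8) and the tissue plasminogen activator Plat (-0.66) fell. F13b stood at 8.87, 8.7 and 8.66 in the Cre- kidneys and 6.8, 5.89, 6.39 and 6.53 in the Cre+ kidneys (log2 difference -2.34, SE 0.18, adjusted p = 1.6e-07). Of complement genes 11 of 19 measured members rose and 1 fell (median log2 difference 0.74): the anaphylatoxin receptor C3ar1 (2.13), C4b (2.05), C1qb (1.75) and C1qa (1.3) rose and factor B, Cfb (-1.16), fell. C1q and C3ar1 are expressed by macrophages, whose markers rose in the same kidneys.

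Many matrix genes rose. Of collagen genes 12 of 24 measured members rose and 3 fell (median log2 difference 0.43). The fibrillar chains Col1a1 (2.43), Col3a1 (2.09) and Col1a2 (1.57) and the fibril-associated Col12a1 (2.25) rose, and the basement membrane chain Col4a3 (-0.7) and Col27a1 (-0.7) fell. Col1a1 stood at 6.7, 6.21 and 6.08 in the Cre- kidneys and 8.74, 8.84, 8.79 and 8.67 in the Cre+ kidneys (log2 difference 2.43, SE 0.21, adjusted p = 4.4e-07). Of other matrix and myofibroblast genes 15 of 26 measured members rose and 1 fell (median log2 difference 0.6): after Reln came tenascin C, Tnc (2.41), fibronectin, Fn1 (2.03), and thrombospondin 2, Thbs2 (1.98), while the elastic-fibre gene Fbln5 (-0.78) fell. Of metalloproteinases and their inhibitors 11 of 20 measured members rose and 2 fell (median log2 difference 0.54). The proteinases Mmp14 (1.99) and Mmp2 (1.45) rose with the inhibitor Timp2 (2.35), and the inhibitor Timp3 (-0.75) fell. Timp2 stood at 7.59, 7.11 and 7.29 in the Cre- kidneys and 9.41, 9.85, 9.71 and 9.74 in the Cre+ kidneys (log2 difference 2.35, SE 0.14, adjusted p = 8.9e-09). The summed level of matrix and myofibroblast genes was 12.02 to 12.25 in the Cre- kidneys and 12.96 to 13.28 in the Cre+ kidneys, while mesangial and vascular smooth muscle markers, with 1 of 14 higher and 1 lower, overlapped at 10.14 to 10.48 in the Cre- kidneys and 10.21 to 10.59 in the Cre+ kidneys.

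Nearly all macrophage markers and most genes of antigen presentation rose. Of macrophage and monocyte markers 22 of 24 measured members rose and 0 fell (median log2 difference 1.33), and their summed level was 10.08 to 10.52 in the Cre- kidneys and 11.71 to 11.98 in the Cre+ kidneys. Clec7a, a receptor for fungal glucans on myeloid cells, stood at 4.4, 5.48 and 5.19 in the Cre- kidneys and 7.6, 7.39, 7.39 and 7 in the Cre+ kidneys (log2 difference 2.32, SE 0.29, adjusted p = 1.9e-05). Lysozyme, Lyz2 (2.21), Ly86 (1.99) and the F4/80 gene Adgre1 (1.93) followed. Of MHC class II and costimulation genes 9 of 12 measured members rose and 0 fell (median log2 difference 0.94), including H2-DMb2 (2.97), which loads peptides, and the chains H2-Ab1 (2), H2-Aa (1.88) and H2-Eb1 (1.53). H2-Ab1 stood at 9.19, 9.47 and 9.54 in the Cre- kidneys and 11.36, 11.33, 11.57 and 11.32 in the Cre+ kidneys (log2 difference 2, SE 0.16, adjusted p = 1.6e-07).

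Some markers of lymphocytes rose too. Of T and NK cell markers 8 of 22 measured members rose and 0 fell (median log2 difference 0.37), among them the interleukin 7 receptor Il7r (2.55), the CD3 chains Cd3g (2.16) and Cd3e (1.89) and Cd4 (1.24). Cd3g stood at 3.84, 4.3 and 4.33 in the Cre- kidneys and 6, 6.16, 6.37 and 6.72 in the Cre+ kidneys (log2 difference 2.16, SE 0.19, adjusted p = 3.7e-07). Of B and plasma cell markers 7 of 14 measured members rose and 0 fell (median log2 difference 0.56), among them Ms4a1 (CD20) (1.56) and Cd79a (1.33). The summed levels were 8.52 to 8.61 in the Cre- kidneys and 9.17 to 9.7 in the Cre+ kidneys for T and NK cell markers, and 9.95 to 10.04 in the Cre- kidneys and 10.29 to 11.25 in the Cre+ kidneys for B and plasma cell markers. Of 15 neutrophil and mast cell markers 2 rose and 1 fell (median -0.05), near the 11.7% and 10.8% of all genes. The largest rise among them, Kit (1.51), is also expressed by intercalated cells.

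Many signals of inflammation also rose. Of chemokines and their receptors 19 of 30 measured members rose and 0 fell (median log2 difference 0.61), led by the B cell chemokine Cxcl13 (1.76) and by Ccl9 (1.54), Ccl3 (1.31) and Ccl5 (1.3). Of cytokines and their receptors 11 of 24 measured members rose and 2 fell (median log2 difference 0.22), with the TNF receptor Tnfrsf1b (1.85), the interleukin 1 receptor Il1r1 (1.6), lymphotoxin beta, Ltb (1.24), and Il1b (1.21) highest. Of interferon-induced genes 17 of 21 measured members rose and 0 fell (median log2 difference 0.76), among them Mx2 (1.21), Iigp1 (1.17) and the transcription factor Irf7 (1.16). The part of the immune cell markers in the rises of lysosomal, complement and cytokine genes was not tested.

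**Figure D3:**
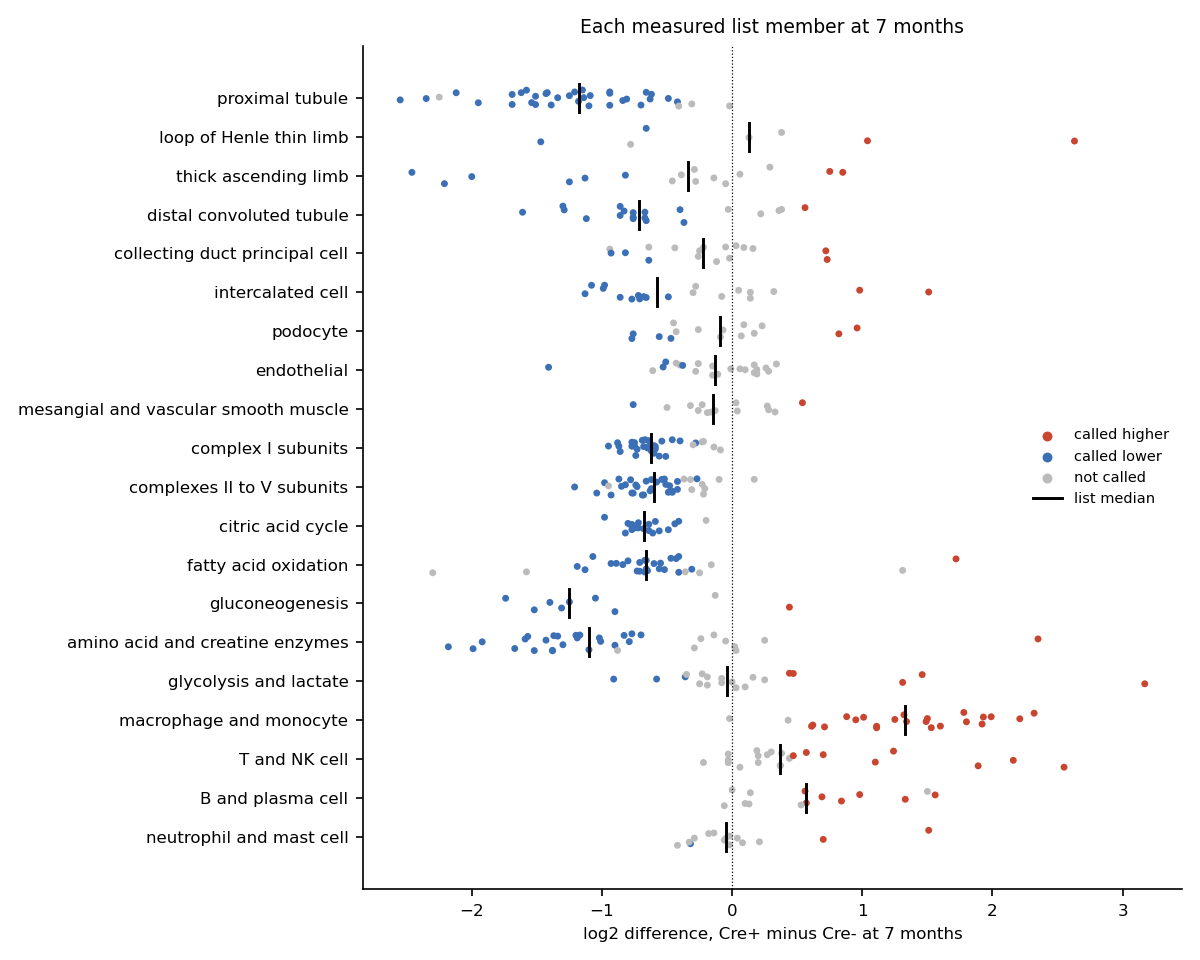
Log2 difference (Cre+ minus Cre- at 7 months, horizontal axis) of each measured member of nephron, vascular, metabolic and immune cell lists; red and blue points are called higher and lower, grey points are not called, and black bars are list medians. The proximal tubule median lies at -1.18 and the macrophage median at 1.33, while endothelial and podocyte members lie on both sides of 0.

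The 20 largest falls, also chosen among genes without overlap, included enzymes, transporters and secreted proteins. Cyp2d12, a cytochrome P450, stood at 8.7, 9.61 and 10.24 in the Cre- kidneys and 7.06, 6.09, 5.95 and 6.13 in the Cre+ kidneys (log2 difference -3.21, SE 0.47, adjusted p = 9.1e-05). Dnase1, a secreted nuclease made by tubules, stood at 10.54, 11.19 and 10.79 in the Cre- kidneys and 8.16, 8.1, 8.17 and 7.39 in the Cre+ kidneys (log2 difference -2.89, SE 0.22, adjusted p = 1.1e-07). Slc22a7, an organic anion transporter of the proximal tubule, stood at 9.29, 9.45 and 9.52 in the Cre- kidneys and 6.42, 6.57, 6.17 and 8.31 in the Cre+ kidneys (log2 difference -2.55, SE 0.39, adjusted p = 0.00013). One Cre+ kidney was closer to the controls than the others for Slc22a7. Gatm, which makes the precursor of creatine, stood at 10.26, 9.36 and 9.36 in the Cre- kidneys and 7.92, 6.97, 7.41 and 7.62 in the Cre+ kidneys (log2 difference -2.18, SE 0.23, adjusted p = 3.2e-06). Car4, a membrane carbonic anhydrase, stood at 8.45, 9.31 and 9.04 in the Cre- kidneys and 7.04, 6.82, 6.03 and 6.6 in the Cre+ kidneys (log2 difference -2.31, SE 0.27, adjusted p = 8.6e-06). Others among the 20 largest falls were Wfdc15b (-2.63), C1qtnf3 (-2.57), the steroid dehydrogenase Hsd3b2 (-2.51), the glutathione peroxidase Gpx6 (-2.5), Tmem207 (-2.46), the monocarboxylate transporter relative Slc16a14 (-2.31), the anion transporter Slc22a26 (-2.42), Sectm1b (-2.53), Nccrp1 (-2.24) and the acyl-CoA synthetase Acsm1 (-2.15). Fcamr (-2.43), an Fc receptor, and the aldo-keto reductase Akr1c14 (-2.26) were also among them, and both lost their calls when either Cre- array with high Y-linked values was left out. Another 3 called genes fell as far but overlapped between groups, Ugt2b38 (-2.85), Slc22a28 (-2.75) and Ucp1 (-2.46). They were named after their values were seen, and each lost its call when 1 of several arrays was left out. For Ugt2b38 and Slc22a28 these were Cre- replicates 2 and 3 and Cre+ replicates 3 and 4 (adjusted p = 0.091 to 0.15). For Ucp1 they were the 5 arrays other than Cre- replicate 2 and Cre+ replicate 4 (adjusted p = 0.081 to 0.26). With the Y-linked mean as a covariate, all 3 kept their calls. Ugt2b38 was then at -2.45 (adjusted p = 9e-09), Slc22a28 at -2.36 (9.4e-05) and Ucp1 at -2.57 (0.033). Where Y-linked transcripts were high, their effects were -2.27, -1.52 and -2.17. Where these were low, with a single Cre- mouse, the effects were -2.69, -3.55 and -3.69. Whether the Y-linked split accounts for the overlap was not tested.

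Most markers of the proximal tubule fell. Of these 0 of 37 measured members rose and 33 fell (median log2 difference -1.18), against 10.8% of all genes called lower, and the summed level was 15.88 to 15.95 in the Cre- kidneys and 14.72 to 15.08 in the Cre+ kidneys. Slc5a2, the glucose transporter SGLT2, stood at 11.13, 10.8 and 10.79 in the Cre- kidneys and 9.03, 8.35, 8.77 and 9 in the Cre+ kidneys (log2 difference -2.12, SE 0.15, adjusted p = 5.6e-08). Slc34a1, the sodium-phosphate transporter, stood at 12.11, 12.28 and 12.19 in the Cre- kidneys and 11.1, 10.69, 10.75 and 10.85 in the Cre+ kidneys (log2 difference -1.34, SE 0.11, adjusted p = 1.8e-07). Both were lower in every Cre+ kidney, as were the other phosphate transporter Slc34a3 (-1.95), Ttc36 (-2.35) and the water channel Aqp1 (-0.66), which the thin descending limb shares. Hnf4a, the transcription factor that maintains the proximal tubule programme, stood at 9.36, 9.5 and 9.48 in the Cre- kidneys and 8.42, 8.3, 8.05 and 8.01 in the Cre+ kidneys (log2 difference -1.25, SE 0.11, adjusted p = 6.4e-07).

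Markers of later segments fell in part. Over all genes 11.7% were called higher and 10.8% lower, the shares against which these counts are read. Of distal convoluted tubule markers 1 of 20 measured members rose and 15 fell (median log2 difference -0.72), with the calcium-binding Calb1 (-1.61), the sodium pump subunit Fxyd2 (-1.3) and the salt-regulating kinase Wnk4 (-1.29) and its ubiquitin ligase adaptor Klhl3 (-1.12) lower. Of thick ascending limb markers 2 of 16 measured members rose and 6 fell (median log2 difference -0.34): Egf, Tmem207, Ppp1r1a (-2), the chloride channel subunit Bsnd (-1.25), Cldn10 (-1.13) and the potassium channel Kcnj1 (-0.82) fell. Umod, the most specific product of that segment, stood at 11.89, 11.68 and 12.02 in the Cre- kidneys and 12.2, 12.19, 12.05 and 12.17 in the Cre+ kidneys (log2 difference 0.29, SE 0.11, adjusted p = 0.071) and was not called, with groups that did not overlap. It passed as higher in 6 of the alternatives: the filter on dim genes (adjusted p = 0.039), quantile normalization (log2 difference 0.39, adjusted p = 0.011), array weights (adjusted p = 0.018), robust variance with a trend (adjusted p = 0.034), a linear model without moderation (adjusted p = 0.047) and a fit without Cre- replicate 3 (adjusted p = 0.035). Of intercalated cell markers 2 of 20 measured members rose and 11 fell (median log2 difference -0.57), with the bicarbonate exchangers Slc26a4 (-1.08), Slc4a9 (-0.98) and Slc4a1 (-0.72) and the carbonic anhydrase Car12 (-1.13) lower and Kit and the Notch ligand Jag1 (0.98) higher. Of principal cell markers 2 of 17 measured members rose and 3 fell (median log2 difference -0.22), not far from the shares over all genes. The sodium channel subunit Scnn1a (-0.93) fell and the water channel Aqp3 (0.73) rose. Aqp2, the vasopressin-regulated water channel, stood at 9.12, 8.85 and 9.05 in the Cre- kidneys and 8.72, 8.63, 8.92 and 8.74 in the Cre+ kidneys (log2 difference -0.25, SE 0.17, adjusted p = 0.34). In the thin limb 2 of 7 rose and 2 fell, with Cldn4 (2.63), which other epithelia also express, the largest rise and the urea transporter Slc14a2 (-1.47) the largest fall.

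Podocyte and endothelial markers, and genes of neighbouring tissue, were examined next, against 11.7% of all genes called higher and 10.8% called lower. Of podocyte markers 2 of 15 measured members rose and 4 fell (median log2 difference -0.09), with nephrin, Nphs1 (-0.76), and Podxl (-0.77) lower and Plce1 (0.96) and Thsd7a (0.82) higher, and the summed level overlapped between groups at 11.87 to 12.05 in the Cre- kidneys and 11.72 to 12.14 in the Cre+ kidneys. Of genes listed as endothelial 0 of 22 measured members rose and 4 fell (median log2 difference -0.13), among them Ehd3 (-1.41), a gene of glomerular endothelium, and the VEGF receptor Flt1 (-0.53). The falls include Vegfa (-0.38), the ligand of that receptor, which is not a marker of endothelial cells. Of tubule transcription factors 6 of 26 measured members rose and 11 fell (median log2 difference -0.16). With Hnf4a fell Hnf4g (-1.03), Esrrb (-1.38) and Ppara (-1.19), and the epithelial factors Elf3 (1.11) and Ehf (1) and the developmental factors Sim2 (1.02) and Irx2 (0.83) rose. Of markers of tissue near the kidney, 2 of 9 adipocyte genes fell, 1 of 9 adrenal cortex genes rose and 1 fell, and 2 of 10 glial and neuronal genes rose, led by Ncam1 (1.26). Counts in lists this small were not read as a change of the tissue. The summed adipocyte level overlapped at 9.42 to 10.88 in the Cre- kidneys and 8.37 to 10.11 in the Cre+ kidneys.

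Junction and lining genes of epithelia changed in composition. Of cadherins and tight junction genes 11 of 25 measured members rose and 5 fell (median log2 difference 0.25). Cdh6, a cadherin of the developing and proximal nephron and of renal carcinoma, stood at 7.65, 5.78 and 6.32 in the Cre- kidneys and 8.96, 8.51, 9.31 and 8.87 in the Cre+ kidneys (log2 difference 2.33, SE 0.44, adjusted p = 0.00082). The Cre- kidney at 7.65 was the one with low Y-linked values, and the effect on Cdh6 was 2.68 in the high and 1.44 in the low class. Cldn4 stood at 6.07, 5.9 and 6.73 in the Cre- kidneys and 8.47, 9.24, 8.84 and 8.91 in the Cre+ kidneys (log2 difference 2.63, SE 0.2, adjusted p = 1.4e-07). Both were higher in every Cre+ kidney, and Cldn1 (1.83) and Cldn7 (1.08) rose too, whereas Cdh2 (-0.82), the cadherin of proximal tubule cells, fell with Cdh16 and Cldn10. Of 14 urothelium and keratin genes 6 rose and 0 fell (median 0.2), with the uroplakins Upk1a (1.89), Upk1b (1.29) and Upk3a (0.91) among them. Uroplakins line the urinary tract, including the renal pelvis, and the part of the amount of pelvis in each sample was not tested.

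Most genes of mitochondrial metabolism fell, by modest amounts. Of complex I subunits 0 of 33 measured members rose and 28 fell (median log2 difference -0.62), of complexes II to V 0 rose and 29 of 38 fell (median -0.6), and of citric acid cycle enzymes 0 of 19 measured members rose and 18 fell (median log2 difference -0.68). Ndufs8, an iron-sulfur subunit of complex I, stood at 9.5, 9.04 and 8.98 in the Cre- kidneys and 8.24, 8, 8.47 and 8.17 in the Cre+ kidneys (log2 difference -0.95, SE 0.16, adjusted p = 0.00024). Idh2, the mitochondrial isocitrate dehydrogenase, stood at 10.46, 10.28 and 10.2 in the Cre- kidneys and 9.43, 9.36, 9.42 and 9.13 in the Cre+ kidneys (log2 difference -0.98, SE 0.12, adjusted p = 1.1e-05). The groups did not overlap for either gene, and the falls were small: 0 complex I, 2 complex II to V and 0 citric acid cycle genes fell at least 2-fold. Of fatty acid oxidation genes 1 of 31 measured members rose and 24 fell (median log2 difference -0.66): the receptor Ppara (-1.19) that controls them, Ehhadh (-1.13), Hadh (-1.07) and Acads (-0.93) fell. Pdk4, a kinase that holds back pyruvate oxidation, was the exception among them and stood at 7.74, 6.36 and 7.02 in the Cre- kidneys and 8.35, 8.66, 9.26 and 8.78 in the Cre+ kidneys (log2 difference 1.72, SE 0.28, adjusted p = 0.00025).

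Most glucose-making enzymes fell, and glucose-using enzymes were divided. Of gluconeogenesis genes 1 of 9 measured members rose and 7 fell (median log2 difference -1.25). Pcx, pyruvate carboxylase, stood at 8.68, 9.16 and 8.82 in the Cre- kidneys and 7.17, 7.17, 7.04 and 7.2 in the Cre+ kidneys (log2 difference -1.74, SE 0.18, adjusted p = 2.8e-06). Pck1 (-1.52), G6pc (-1.4) and the fructose kinase Khk (-1.31) fell as well, and mitochondrial Pck2 (0.44) was the 1 member that rose. Of glycolysis and lactate genes 5 of 20 measured members rose and 3 fell (median log2 difference -0.04). Hk2, a hexokinase isoform, stood at 4.16, 4.05 and 4.56 in the Cre- kidneys and 6.77, 7.02, 8.36 and 7.53 in the Cre+ kidneys (log2 difference 3.17, SE 0.27, adjusted p = 3.7e-07). Pfkp (1.46) and Eno2 (1.31) also rose, and Ldhb (-0.91) and Aldoc (-0.58) fell. Each of these isoforms was counted alone, and the summed level of the glycolysis list was 13.35 to 13.41 in the Cre- kidneys and 13.19 to 13.32 in the Cre+ kidneys.

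Many enzymes of amino acids, xenobiotics and redox balance fell. Of amino acid and creatine enzymes 1 of 33 measured members rose and 24 fell (median log2 difference -1.1): after Gatm came the kynurenine enzyme Haao (-1.99), the tyrosine enzyme Hpd (-1.92) and the mitochondrial serine enzyme Shmt2 (-1.67). Of cytochrome P450 and phase 2 genes 2 of 24 measured members rose and 9 fell (median log2 difference -0.88), with Cyp2d12 and Cyp2a4 (-1.49) lower and Ephx1 (0.88) and Cyp1b1 (0.77) higher. Members of the Cyp2d family are close in sequence, and probes of one can bind transcripts of another. Of NRF2 antioxidant genes 4 of 23 measured members rose and 12 fell (median log2 difference -0.42). Akr1b8 (1.24), Slc7a11 (1), Hmox1 (0.55) and Pgd (0.5) rose, and the Cre- mean of Slc7a11, 2.74, may lie at background. The largest falls were those of Gpx6, Osgin1 (-1.32), Sod3 (-1.18) and Sod2 (-1.1), the mitochondrial superoxide dismutase. Slc7a11, Hmox1 and Pgd were not followed through the alternatives given at the end.

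Of NAD metabolism genes 3 of 17 measured members rose and 8 fell (median log2 difference -0.33). The nicotinamide riboside kinases moved apart: Nmrk2 stood at 3.93, 3.42 and 4.1 in the Cre- kidneys and 4.53, 5.17, 6.87 and 5.44 in the Cre+ kidneys (log2 difference 1.69, SE 0.35, adjusted p = 0.0018). Nmrk1 stood at 8.26, 8.54 and 8.24 in the Cre- kidneys and 6.61, 6.48, 6.49 and 6.36 in the Cre+ kidneys (log2 difference -1.86, SE 0.12, adjusted p = 1.5e-08). Sirt3 (-1.03), the mitochondrial NAD-dependent deacylase, Nmnat1 (-0.86) and Naprt (-0.85) fell. Of cholesterol and lipid genes 6 of 24 measured members rose and 4 fell (median log2 difference -0.06), the lipid carrier Apoe (1.43), the lipid droplet protein Plin4 (1.37), the cholesterol exporter Abca1 (1.11) and Insig1 (1.03) rose, and lipoprotein lipase, Lpl (-1.3), and the sterol enzyme Mvd (-1.12) fell.

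Whether the effect at 7 months was larger than at 4 months was tested gene by gene as the difference of the effects at both ages. It was positive for 213 genes (0.96%) and negative for 262 (1.18%). All 213 were called higher at 7 months, and 252 of the 262 were called lower. At 4 months, 606 genes (2.73%) were higher and 178 (0.803%) lower, and 547 and 168 of these were called in the same direction at 7 months, 90.3% and 94.4% of the calls of 4 months and 21.1% and 7.02% of those of 7 months. No gene was called in opposite directions. The comparisons at each age shared no array, but they had in common the estimate of spread. The counts of the age contrast rested on single arrays: they were 108 and 117 without Cre- replicate 2 of 7 months, and the negative count was 148 without Cre- replicate 3, 149 without Cre+ replicate 2 and 156 without Cre+ replicate 3.

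Genes with a larger rise at 7 months included Gabrp, a GABA receptor subunit, which stood at 4.13, 4.01 and 4.92 in the Cre- kidneys and 7.44, 7.29, 7.67 and 6.97 in the Cre+ kidneys. Its log2 difference was 0.34 at 4 months and 2.99 at 7 months (difference of effects 2.65, SE 0.27, adjusted p = 0.00046). Adgrg2, an adhesion receptor, was at 0.43 at 4 months and 2.96 at 7 months (difference of effects 2.53, SE 0.27, adjusted p = 0.00046), with Cre- values near background. Vcam1 was at 0.92 at 4 months and 3.22 at 7 months (difference of effects 2.3, SE 0.3, adjusted p = 0.0017). Mmp7 was at 1.62 at 4 months and 3.99 at 7 months (difference of effects 2.38, SE 0.41, adjusted p = 0.0069). Gpnmb, already far up at the younger age, was at 6.3 at 4 months and 7.74 at 7 months (difference of effects 1.45, SE 0.25, adjusted p = 0.0069). By contrast Ret was at 2.53 at 4 months and 2.58 at 7 months (difference of effects 0.05, SE 0.25, adjusted p = 0.95) and Tgfb2 at 4.59 at 4 months and 4.6 at 7 months (difference of effects 0.01, SE 0.32, adjusted p = 0.99), which missed the threshold. Among the genes with a larger fall at 7 months, Cyp2d12 was at -0.08 at 4 months and -3.21 at 7 months (difference of effects -3.12, SE 0.65, adjusted p = 0.019). Dnase1 was at -1.04 at 4 months and -2.89 at 7 months (difference of effects -1.85, SE 0.3, adjusted p = 0.0049). Egf was at -0.77 at 4 months and -2.21 at 7 months (difference of effects -1.45, SE 0.23, adjusted p = 0.0049). Slc34a1 was at -0.38 at 4 months and -1.34 at 7 months (difference of effects -0.96, SE 0.15, adjusted p = 0.0038).

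Gene lists were then set side by side at both ages. Over all genes, 2.73% were called higher and 0.803% lower at 4 months, and 11.7% and 10.8% at 7 months. The difference of effects was positive for 0.96% and negative for 1.18%. More calls in a list at 7 months than at 4 months are therefore not by themselves particular to that list. Of 37 proximal tubule markers, 0 rose and 5 fell at 4 months (median -0.3) and 0 rose and 33 fell at 7 months (median -1.18), and 0 had a positive and 14 a negative difference of effects. Of 24 macrophage markers, 8 rose and 0 fell at 4 months (median 0.5) and 22 rose and 0 fell at 7 months (median 1.33), and 6 had a positive and 0 a negative difference of effects. Of 27 injury markers, 9 rose and 0 fell at 4 months (median 0.39) and 23 rose and 0 fell at 7 months (median 1.02), and 6 had a positive and 0 a negative difference of effects. Of 33 complex I subunits, 0 rose and 1 fell at 4 months (median -0.22) and 0 rose and 28 fell at 7 months (median -0.62), and 0 had a positive and 1 a negative difference of effects. Of 34 cell cycle genes, 11 rose and 0 fell at 4 months (median 0.39) and 25 rose and 1 fell at 7 months (median 0.62), and 0 had a positive and 0 a negative difference of effects. Of 24 lysosomal membrane genes, 5 rose and 0 fell at 4 months (median 0.13) and 10 rose and 2 fell at 7 months (median 0.24), and 2 had a positive and 0 a negative difference of effects. A gene called at 7 months and not at 4 months is not thereby shown to differ between the ages: only the difference of effects tests that.

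**Figure D4:**
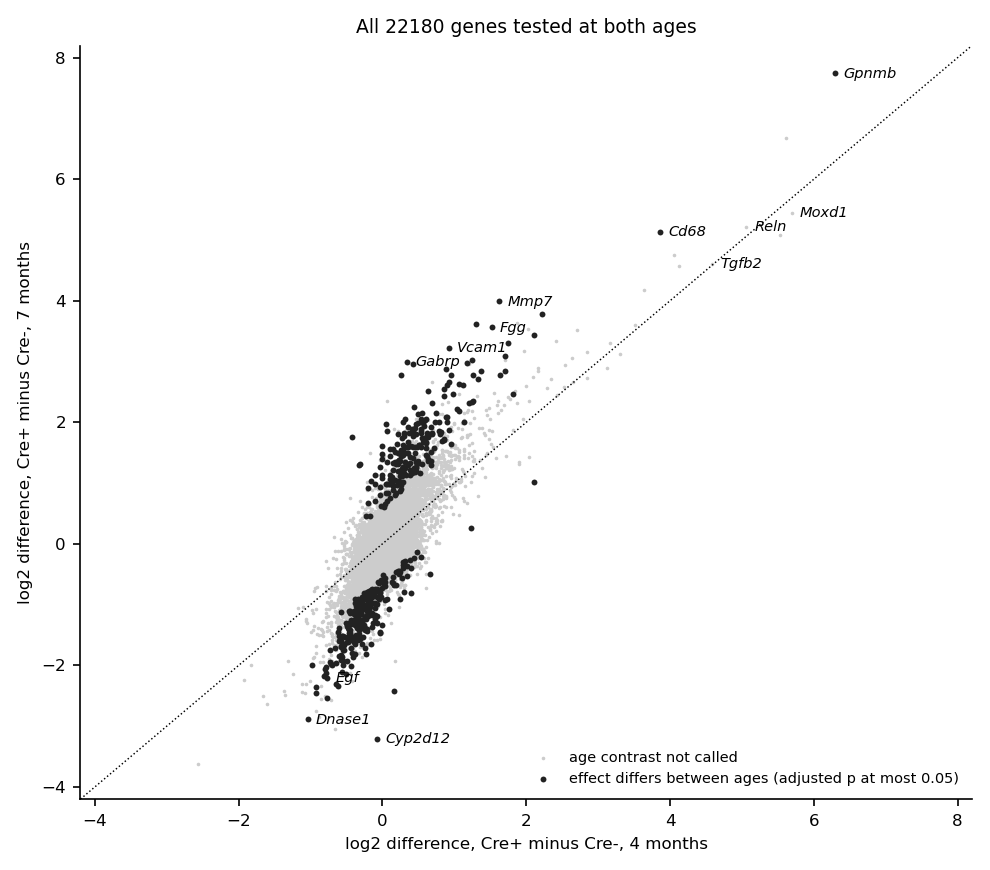
Log2 difference between Cre+ and Cre- kidneys at 4 months (horizontal axis) and at 7 months (vertical axis) for all 22180 genes; black points are the genes whose effects differed between the ages (213 positive, 262 negative) and the dotted line marks equal effects. Gabrp, Vcam1 and Mmp7 lie well above the line and Cyp2d12 and Dnase1 below it, while Reln and Moxd1 lie near it.

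The mean of Y-linked transcripts was 2.86, 7.46 and 7.36 in Cre- replicates 1, 2 and 3, and 7.8, 7.45, 2.71 and 2.64 in Cre+ replicates 1, 2, 3 and 4. A fit with 8 group means, by age, Cre and this class, was added after the data were seen, and it tested whether the effect at 7 months differed between the classes. That difference was positive for 5 genes and negative for 7, with a single Cre- mouse in the low class. The genes named here from it were chosen after their values were seen. Arg2, the mitochondrial arginase, stood at 7.48, 4.66 and 5.21 in the Cre- kidneys and 8.09, 8.2, 8.04 and 8.21 in the Cre+ kidneys. Its effect was 3.21 in the mice with high and 0.65 in those with low Y-linked values (difference 2.56, adjusted p = 0.011). The Cre+ mice were alike and the Cre- mouse with low Y-linked values was high. Slc7a12, an amino acid transporter, stood at 11.87, 7.51 and 8.27 in the Cre- kidneys and 10.23, 9.92, 10.66 and 11.06 in the Cre+ kidneys, and its effect was 2.19 in the mice with high and -1.01 in those with low Y-linked values (difference 3.2, adjusted p = 0.03). Fcamr had an effect of -3.07 in the mice with high and -0.95 in those with low Y-linked values (difference -2.12, adjusted p = 0.022). Slco1a1, an anion transporter of male kidneys, had an effect of -3.38 in the mice with high and -0.37 in those with low Y-linked values (difference -3, adjusted p = 0.0028), and its low-class values, at most 2.83, may lie at background.

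Havcr1 had an effect of 4.08 in the high and 1.6 in the low class, a difference of 2.48 that missed the threshold (adjusted p = 0.08). Gpnmb was at similar values in both, 7.71 and 7.73. Of 8 male-biased kidney genes 0 were called over all 7 arrays (median -1.9), where the classes are pooled. Within the high class all of them had negative effects, from -3.38 to -0.33, and most lay at -1.32 or lower. In the low class, with its single Cre- mouse, their effects ran from -2.7 to 1.46. Of 7 genes listed as female-biased 0 rose and 1 fell over all 7 arrays (median 0.88). Their effects ran from -1.42 (Acsm2) to 2.19 (Slc7a12) in the high class, where most were at 1.34 or more, and from -1.81 to 0.16 in the low class. The one that fell, Acsm2, stood at 11.11, 12.14 and 12.03 in the Cre- kidneys and 10.92, 10.42, 9.18 and 9.48 in the Cre+ kidneys. It was higher in the Cre- mice with high Y-linked values, against its label in the list. With only the mice of one class in the fit, 1537 genes rose in the high class and 1831 in the low class. The lower calls were 1825 in the high class and 1225 in the low class. With the Y-linked mean as a covariate over all arrays, 2666 genes rose and 2656 fell. The counts of named genes that follow leave out Slc7a11, Hmox1, Pgd and Ppargc1a. Of the called genes named here, 17 missed the threshold within the high class and 27 within the low class, 37 different genes in all, in fits of fewer arrays. For 8 of them the log2 difference was also over 1.5 times smaller there than over all 7 arrays. In the low class these were Flt1, at -0.24 against -0.53 over all arrays (adjusted p = 0.43 in the low class), Acads, at -0.45 against -0.93 (0.11), Akr1c14, at -1.35 against -2.26 (0.085), Naprt, at -0.53 against -0.85 (0.063), and Nmnat1, at -0.53 against -0.86 (0.12). In the high class they were Mcoln1, at 0.36 against 0.58 (0.18), Trp53inp1, at 0.49 against 0.82 (0.14), and Col27a1, at -0.45 against -0.7 (0.1).

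**Figure D5:**
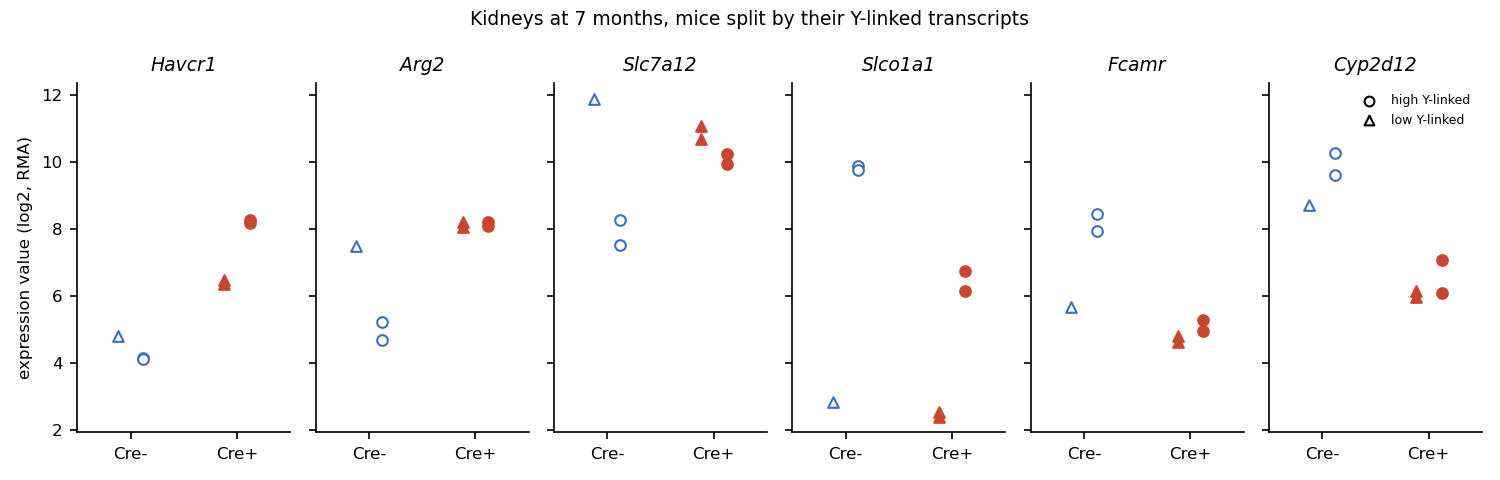
Expression (log2 RMA value, vertical axis) of 6 genes in each 7-month kidney, Cre- in blue (open) and Cre+ in red (filled), with circles for mice with high and triangles for mice with low Y-linked transcripts. Havcr1 is 8.17 and 8.25 in the Cre+ circles and 6.46 and 6.34 in the Cre+ triangles. The Cre- triangle of Arg2 lies near the Cre+ mice, and that of Slc7a12 lies above all of them.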

How the data were processed

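Total RNA of whole kidneys, 1 mouse per array, was hybridised to Affymetrix Mouse Gene ST arrays. The deposited values are log2 expression from RMA in Partek 6.6, per the series design text and the submitters' processing notes; background correction, normalization and probe summary were done by the authors. The table held 41345 entries on 15 arrays. The platform annotation gave 23521 of them 1 gene symbol, 1814 several symbols and 16010 none. RefSeq (GRCm38.p6) supplied the current symbol for 23328 through Entrez identifiers, and 193 kept the old one. One entry stood for each gene, that of highest mean across the arrays (1082 genes had a choice), giving 22180 genes, none removed for being dim. Probe positions were not used here.

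Groups came from the titles. The 15 arrays entered 1 limma 3.58.1 fit (R 4.3.3; lmFit, then eBayes) of 4 group means. Two-sided tests of Cre+ against Cre- at 7 months, at 4 months and of the difference of these effects were adjusted by Benjamini-Hochberg over all genes, with a threshold of 0.05 ("called"). The submitters named an analysis of variance; the plain linear model was run as an alternative. Errors are standard errors of this fit, and p-values measure the spread among mice, since each value is 1 mouse. Arrays have no read depth; their number limits precision. The procedure was tested on simulated data.

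The 60 gene lists (1102 of 1206 genes measured) and the subject were chosen with earlier results of these data known, so list counts are descriptions. Genes were named by rule: the 20 largest rises and falls without overlap, up to 4 called members of each list in each direction (2 as values where none was called), the 8 largest age differences in each direction, a set of kidney and fusion markers, and the promoters with an E-box; fewer are given. Alternatives were median centring, quantile normalization, a filter for genes above 4.9 on 3 or more arrays, array weights, robust variance with a trend, the 7-month arrays alone, the replicate block, Y-linked values as covariate or split, all entries of the table or their mean per gene, and each 7-month array left out. Tables and figures were made with Python 3.11.15, pandas 2.3.3, numpy 2.4.6 and matplotlib 3.10.9.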

Additional observations from a re-analysis of the deposited data

Results flagged for a closer look

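Among 250 genes named, 82 had an effect at 7 months that differed from the effect at 4 months in the test of that difference (limma). Over all 22180 genes this difference was positive for 213 (0.96%) and negative for 262 (1.18%). Genes were named in part for the size of their 7-month effect or of this difference, so the count of 82 is partly built in. The value of the 7-month effect minus the 4-month effect on the log2 scale is given for each of the 82. In alphabetical order, positive differences were found for Abca1 (0.87), Adgrg2 (2.53), Aoc1 (1.31), Atf3 (1.07), C1qb (1.14), C3ar1 (1.63), C4b (1.52), Ccl3 (1.1), Cd3e (1.35), Cd3g (1.42), Cd4 (0.93), Cd44 (2), Cd68 (1.27), Cd79a (1.18), Cldn1 (1.15) and Cldn4 (1.57). Positive differences were also found for Clec7a (1.63), Col12a1 (1.82), Col3a1 (1.19), Ctsl (0.68), Ctss (1.88), Cxcl13 (2.18), Efcab1 (1.57), Eno2 (0.77), Fga (1.34), Fgb (2.31), Fgg (2.05), Gabrp (2.65), Gpnmb (1.45), Grem1 (1.33), H2-Aa (0.95) and H2-Ab1 (0.85). The remaining positive differences were H2-DMb2 (1.79), Hpse (2.51), Il7r (1.7), Ltb (0.8), Ltbp2 (1.46), Mmp14 (1.49), Mmp7 (2.38), Ms4a1 (1.45), Perp (0.78), Scarb2 (0.63), Thbs2 (1.52), Timp2 (1.08), Tnfrsf1b (1.06), Upk1b (1.62), Vcam1 (2.3) and Zdhhc2 (1.56). Negative differences were found for Acp5 (-0.72), Acsm1 (-1.65), Aqp1 (-0.69), Bmp7 (-0.68), Car4 (-1.67), Cfb (-0.78), Cyp2d12 (-3.12), Dnase1 (-1.85), Egf (-1.45), Ehhadh (-0.98), F13b (-1.72), Fxyd2 (-0.95), G6pc (-1.2), Gatm (-1.36), Haao (-1.29), Hadh (-0.76) and Hnf4a (-0.86). The remaining negative differences were Khk (-0.98), Ldhb (-0.57), Lipa (-0.84), Nmrk1 (-1.3), Osgin1 (-0.94), Pcx (-1.01), Ppp1r1a (-1.02), Sectm1b (-1.76), Slc22a26 (-2.58), Slc26a4 (-1.17), Slc34a1 (-0.96), Slc5a2 (-1.34), Sod2 (-0.63), Sod3 (-1.09), Timp3 (-0.6), Tmem207 (-1.54) and Ttc36 (-1.41).

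The effect at 7 months differed between mice with high and with low Y-linked transcripts for Arg2 (2.56), Fcamr (-2.12), Slc7a12 (3.2) and Slco1a1 (-3), given as the effect in the high class minus that in the low class. These were chosen after their values were seen, and the low class holds a single Cre- mouse.

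For 15 of 250 named genes, 1 of the 4 Cre+ kidneys of 7 months, not always the same one, stood apart from the other 3. Its gap to the nearest of the others took up most of the range of the group. The share of the range is given for each: Calb1 (0.933), Ccl3 (0.926), Cldn7 (0.901), Cyp2d12 (0.841), Dnase1 (0.91), Eda2r (0.841), Ephx1 (0.884), Fgg (0.88), Flt1 (0.898), H2-Ab1 (0.844), Irx2 (0.916), Nmnat1 (0.989), Plat (0.887), Ppp1r1a (0.864) and Sirt3 (0.851). Chance alone marks about 1 in 20 groups in this way, and 15 of 250 is close to that rate.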

How the results depend on the processing

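Of the named genes, 250 were followed through the alternatives, and 244 of these were called. No called one took the opposite sign under any alternative run, while Slc7a12, not called, had opposite signs in the high- and low-Y-linked classes. Outside the splits by class, 7 lost their call in at least 1 other setting (Akr1c14, Arg2, Cdh16, Fcamr, Slc22a28, Ucp1 and Ugt2b38), and 37 lost it within either class. The filter on dim genes removed 4 (Akr1b8, Bdnf, Eda2r and Mx2). With 2597 genes higher, the count was 1537 in a fit of the high-Y-linked arrays and 1846 to 2826 with 1 array left out. With 2394 lower, it was 3609 after median centring, 1225 in a fit of the low-Y-linked arrays, 1303 for them in the fit of 8 group means, which was added after the data were seen, and 1867 to 2254 with 1 array left out. The age contrast was less stable. Its 213 positive calls became 359 after quantile normalization, 321 after median centring, 90 in the plain linear model, 40 and 41 in fits of the high- and of the low-Y-linked arrays, 44 and 34 for those classes in the fit of 8 group means, 124 over all entries of the table and 108 to 228 with 1 array left out. Its 262 negative calls became 137 in the plain linear model, 433 with the Y-linked mean as a covariate, 19 and 47 in fits of the high- and of the low-Y-linked arrays, 25 and 54 in the fit of 8 group means, 97 over all entries and 117 to 288 with 1 array left out. The fits of a single Y-linked class used fewer arrays, the fit of 8 group means used all 15, and that of all entries adjusted over more tests. The cause of these shifts was not tested in any setting. Same-numbered Cre- and Cre+ arrays of 7 months correlated at -0.28, 0.22 and -0.06 in their deviations from the group means. So few values, which also carry the Y-linked class, cannot decide whether the numbers pair the mice. With the replicate number as a block, 2398 genes were higher and 2329 lower, and the age contrast called 185 and 233. The number of arrays, 3 and 4, and the lack of detection calls limit small differences and dim genes.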
